A study of Mus musculus with 2 samples.

Results

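Platelet-derived growth factor (PDGF) signalling was described at 7 genes: the ligands Pdgfa, Pdgfb, Pdgfc and Pdgfd, the receptors Pdgfra and Pdgfrb, and Cspg4, which encodes the NG2 proteoglycan on the surface of pericytes. The genes were taken by symbol from the 21951 protein-coding genes of the GENCODE mouse annotation. DNase-seq maps open chromatin from the places where DNase I cuts DNA in nuclei, since packed DNA is cut less readily. The tissue was lung from 14-day-old males of B6CASTF1/J, the first-generation cross of C57BL/6J and CAST/EiJ, with no treatment or mutation named. Both libraries belong to this 1 group, so no comparison between conditions was possible. Replicate 2 is a pool of 3 males, whereas the label of replicate 1 says male and names no pool. The donor entry of both is the same, and it is unknown if any animal went into both. Positions are on mm10, the C57BL/6J sequence.

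PDGF ligands are secreted dimers that bind related receptor tyrosine kinases on mesenchymal cells. PDGF-A and PDGF-C act through PDGFRα, and PDGF-B and PDGF-D mainly through PDGFRβ. In the lung, epithelial PDGF-A is known to drive the PDGFRα-positive cells that become alveolar myofibroblasts during septation, while endothelial PDGF-B recruits PDGFRβ-positive pericytes to capillaries.

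All 7 genes had an accessible promoter in both libraries, but none of these promoters reached the top 10% of peaks in the lists used. In the longer peak lists that of Pdgfra did so in replicate 1, at percentile 90.8, but there the percentile is taken over more peaks. A promoter peak was a peak within 1 kb of any annotated transcript 5′ end, and the peak score, the authors' signal value, was ranked within its own library as a percentile in which 100 is the highest. A gene with a promoter peak is called open and one without it closed. Promoter peaks were present for 7 of 7 members in each library, against 66.6% of all protein-coding genes in replicate 1, 64.1% in replicate 2 and 63.5% in both. The median percentile of the members' highest promoter peak was 70.7 in replicate 1 and 65.9 in replicate 2, a mean of 68.3 ± 3.39 (SD, n = 2). Over all genes with a promoter peak the same median was 89.9 in replicate 1 and 89.7 in replicate 2. Each of the 7 members lay below that median in both libraries. In bulk tissue, fewer cells of a type and less accessibility per cell cannot be told apart.

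The sequences below give the promoters of 4 members as RefSeq places them (GRCm38.p6), to show how they differ in base composition and in whether a peak covered them. Each line holds the 250 bases before the RefSeq start, written along transcription, with matches to the consensus sequences searched in capitals. The positions are chr5:138994282-138994531 (minus strand), chr3:81036166-81036415 (plus), chr9:6168236-6168485 (plus) and chr5:75152001-75152250 (plus).

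Pdgfa promoter: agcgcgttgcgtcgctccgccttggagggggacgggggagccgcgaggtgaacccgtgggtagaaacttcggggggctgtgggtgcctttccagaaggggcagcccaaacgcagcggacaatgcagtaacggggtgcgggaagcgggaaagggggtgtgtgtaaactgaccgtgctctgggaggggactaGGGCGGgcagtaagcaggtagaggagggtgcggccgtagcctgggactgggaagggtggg
Pdgfc promoter: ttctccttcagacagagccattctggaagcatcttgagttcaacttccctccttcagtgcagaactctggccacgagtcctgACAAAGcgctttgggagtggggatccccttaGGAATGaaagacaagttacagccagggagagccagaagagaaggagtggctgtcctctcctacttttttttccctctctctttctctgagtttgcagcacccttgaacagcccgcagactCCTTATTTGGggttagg
Pdgfd promoter: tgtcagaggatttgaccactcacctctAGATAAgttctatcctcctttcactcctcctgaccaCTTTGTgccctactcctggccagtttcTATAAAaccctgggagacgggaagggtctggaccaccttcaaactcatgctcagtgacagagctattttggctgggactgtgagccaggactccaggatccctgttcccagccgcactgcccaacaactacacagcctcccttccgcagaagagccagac
Pdgfra promoter: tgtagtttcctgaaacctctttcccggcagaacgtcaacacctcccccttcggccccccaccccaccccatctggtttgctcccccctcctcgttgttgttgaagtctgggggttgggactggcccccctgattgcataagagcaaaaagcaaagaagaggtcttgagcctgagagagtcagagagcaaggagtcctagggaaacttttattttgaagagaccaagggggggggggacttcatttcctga

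The 13 consensus sequences, read on both strands, were the GC box GGGCGG, the AP-1 site TGANTCA, the ETS core CCGGAA, the TEAD site GGAATG, the FOX site TGTTTAC, the NFI half-site TTGGCA, the CCAAT box, the TATA box TATAAA, the RBPJ site GTGGGAA, the SOX site ACAAAG, the GATA site AGATAA, and by name the CArG box of SRF and the CTCF consensus. The Pdgfa promoter held GGGCGG, as did 32.7% of 32851 RefSeq promoters of this length. That of Pdgfc held a CArG box at -17 to -8 from the RefSeq start, found in 1.47% of all promoters, together with GGAATG (12.6%) and ACAAAG (16.5%). In Pdgfd the matches were TATAAA at -160 to -155 (12.4% of promoters), AGATAA (9.99%) and CTTTGT, the reverse complement of ACAAAG. None of the 13 occurred in these letters at Pdgfra. RefSeq gives Pdgfa a second promoter, not printed here, which overlaps its highest promoter peak of replicate 1 and holds 2 GC boxes. The observed over expected CpG ratio was 0.82 and 0.87 at the promoters of Pdgfa and 0.53 at Cspg4, against 0.19 at Pdgfc, 0.18 at Pdgfd and 0.22 at Pdgfra, beside a median of 0.373 over all promoters. RefSeq promoter sequence was matched for 5 of the 7 members.

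A second set shows 6 further accessible sites, chosen because they ranked high at their gene or differed between the libraries. The site named near upstream of Pdgfra is a promoter peak, and the others lie away from the promoter. Each line is 200 bases around the centre of the site, along transcription of the gene, and capitals mark bases inside footprints. Footprints are short stretches within open DNA that were protected from cutting. For 5 of the sites, capitals are bases covered by footprints of both libraries, and for the site 8.89 kb upstream of Pdgfra they are those of replicate 1, the library with a peak there. The positions are, in order, chr5:138991061-138991260 (minus strand), chr3:81017721-81017920, chr5:75143301-75143500, chr5:75151193-75151392, chr9:56889821-56890020 and chr9:56891501-56891700 (plus strand).

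Pdgfa intron: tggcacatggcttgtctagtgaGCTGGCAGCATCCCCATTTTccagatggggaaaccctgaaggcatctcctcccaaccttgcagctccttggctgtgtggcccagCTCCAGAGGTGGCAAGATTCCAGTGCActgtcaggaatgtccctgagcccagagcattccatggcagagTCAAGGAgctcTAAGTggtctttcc
Pdgfc upstream: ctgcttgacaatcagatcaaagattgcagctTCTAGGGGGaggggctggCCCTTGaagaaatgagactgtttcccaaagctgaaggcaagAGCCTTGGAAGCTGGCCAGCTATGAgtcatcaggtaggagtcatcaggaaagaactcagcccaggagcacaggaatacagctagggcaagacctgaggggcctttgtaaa
Pdgfra far upstream: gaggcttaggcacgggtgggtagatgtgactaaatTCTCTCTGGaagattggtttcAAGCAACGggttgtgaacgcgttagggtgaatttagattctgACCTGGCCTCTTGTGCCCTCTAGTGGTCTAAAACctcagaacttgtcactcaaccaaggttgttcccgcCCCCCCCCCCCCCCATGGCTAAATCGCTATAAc
Pdgfra near upstream: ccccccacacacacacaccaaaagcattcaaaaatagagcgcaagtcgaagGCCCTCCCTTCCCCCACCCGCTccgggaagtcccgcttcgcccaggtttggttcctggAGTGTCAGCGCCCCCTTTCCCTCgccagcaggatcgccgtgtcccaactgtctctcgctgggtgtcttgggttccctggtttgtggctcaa
Cspg4 intron, first: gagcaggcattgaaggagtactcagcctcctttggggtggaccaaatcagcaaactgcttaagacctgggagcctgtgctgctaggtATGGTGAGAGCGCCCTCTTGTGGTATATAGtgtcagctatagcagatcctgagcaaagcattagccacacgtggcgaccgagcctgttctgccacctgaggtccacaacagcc
Cspg4 intron, second: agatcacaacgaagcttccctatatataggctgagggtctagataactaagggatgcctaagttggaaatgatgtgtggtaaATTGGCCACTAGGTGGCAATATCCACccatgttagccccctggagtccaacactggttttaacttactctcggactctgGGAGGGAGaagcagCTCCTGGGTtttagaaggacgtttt

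Pdgfa, on chromosome 5 from 138976014 to 138997370 (minus strand), is the ligand of PDGFRα made by lung epithelium, and it had a broad cluster of open sites over its start. Its 7 annotated transcript 5′ ends spread over 3.09 kb, and each had a peak within 1 kb in both libraries. The cluster held 6 promoter peaks in replicate 1 and 6 in replicate 2, a number reached by 1.83% and 0.938% of all protein-coding genes. The highest in replicate 1, at percentile 81.4, lay 2.37 kb inside the outermost 5′ end in an untranslated region and stood at 73.2 in replicate 2. In replicate 2 the highest, at percentile 79.1, lay 1.28 kb inside and stood at 79.4 in replicate 1. The peak 290 bp upstream of the outermost end was lower, at 72.3 in replicate 1 and 65.7 in replicate 2. All 6 peaks were found in both libraries, so the set of open sites was the same while their order differed. The antisense gene 6330403L08Rik has a transcript 5′ end within 1 kb of 4 of these peaks in replicate 2 and fewer in replicate 1. DNase-seq does not tell the genes of a shared site apart.

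A pair of intronic sites of Pdgfa ranked close to its promoter. The one printed above, 6.21 kb inside the gene, stood at percentile 83.9 in replicate 1 and 80.8 in replicate 2, with 4 footprints in each library. A second, 8.41 kb inside, stood at 78.9 and 79.1. A site 20.55 kb upstream, in an untranslated region of Prkar1b, stood at 80.3 in replicate 1 and 81.8 in replicate 2. In replicate 2 this upstream site was the highest of all peaks at Pdgfa, and its target was not tested. In all, 14 peaks in replicate 1 and 14 in replicate 2 lay in the gene body and the 50 kb on each side outside the promoter. That is 11.5 per 100 kb in both libraries, against a median over all genes of 5.27 in replicate 1 and 4.29 in replicate 2. The equal counts were not the same set: these peaks formed 17 sites, 11 in both libraries, 3 in replicate 1 only and 3 in replicate 2 only.

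Pdgfb, on chromosome 15 from 79995874 to 80014977 (minus strand), encodes the endothelial ligand of PDGFRβ. It had 3 promoter peaks, the same 3 in each library. The highest sat 23 bp upstream of the outermost 5′ end and stood at percentile 82.7 in replicate 1 and 84.1 in replicate 2, with 4 footprints in each. A promoter peak 2.06 kb inside the gene, near a further transcript end, stood at 81.5 and 80.0, and the third at 56.4 and 53.3. The long noncoding gene Gm41361 has an end within 1 kb of the peak inside the gene.

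Outside the promoter, Pdgfb had 13 peaks in replicate 1 and 15 in replicate 2, or 10.9 and 12.6 per 100 kb. Its intron carried 2 sites that lay 9.85 and 10.2 kb from the start, at percentiles 73.7 and 76.6 for the nearer and 78.7 and 81.0 for the farther one. The highest site in the window lay 68.8 kb downstream of the start in an intron of Cbx7, a polycomb gene, at percentile 94.0 in replicate 1 and 88.0 in replicate 2. It is 1 of 5 sites in Cbx7 introns that both libraries shared, and the target of these sites was not tested. That site lay just inside the 50 kb limit, 49574 bp from the gene. The first peak outside the limit, 50608 bp away in replicate 1 and 50616 bp away in replicate 2, stood at 65.0 and 46.1.

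Pdgfc, on chromosome 3 from 81036416 to 81214040 (plus strand), encodes a ligand that needs proteolytic release of its CUB domain before it binds PDGFRα. It had the weakest promoter of the 7 genes: the shared peak, 374 bp inside the gene, stood at percentile 37.8 in replicate 1 and 17.1 in replicate 2. It was the member that lost its promoter peak when the higher-scoring 50% of peaks alone were kept. Among genes with a promoter peak, 8.05% in replicate 1 and 3.50% in replicate 2 had a highest promoter peak below that of Pdgfc, with ties split evenly. A second promoter peak, 970 bp inside, was present in replicate 1 at percentile 27.4 and absent from the peak list of replicate 2. No peak overlapped the 250 bases printed above. In the lists used, 1 further peak lay in the 278 kb searched, 18.6 kb upstream of the start, and it was stronger than the promoter in both libraries, at 77.8 and 63.3. In the longer peak lists Pdgfc had 4 other peaks in replicate 1 and 2 in replicate 2. Its highest promoter peak stood at 58.7 and 38.6 there, percentiles taken over more peaks. The sequence printed above for the upstream site held the AP-1 letters TGANTCA, as did 6.96% of equal windows at all peaks of replicate 1 and 6.92% in replicate 2.

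Pdgfd, on chromosome 9 from 6168584 to 6378850 (plus strand), encodes the other CUB-domain ligand, which acts mainly through PDGFRβ. A compact promoter peak 34 bp upstream of the start stood at percentile 64.5 in replicate 1 and 65.9 in replicate 2, so its rank was nearly the same in both. Replicate 1 listed a further promoter peak at percentile 0.739, close to the bottom of its list. Away from the start the locus was nearly bare: a weak intronic site 177 kb inside stood at 12.0 and 12.3, and replicate 2 had 1 more at 14.3. Pdgfc and Pdgfd thus had 0.360 and 0.322 other peaks per 100 kb in replicate 1, and 0.360 and 0.645 in replicate 2. In replicate 1, 86.3% of all protein-coding genes were at least as dense as Pdgfc and 86.4% as dense as Pdgfd, and in replicate 2 84.8% and 83.7%.

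**Figure D1:**
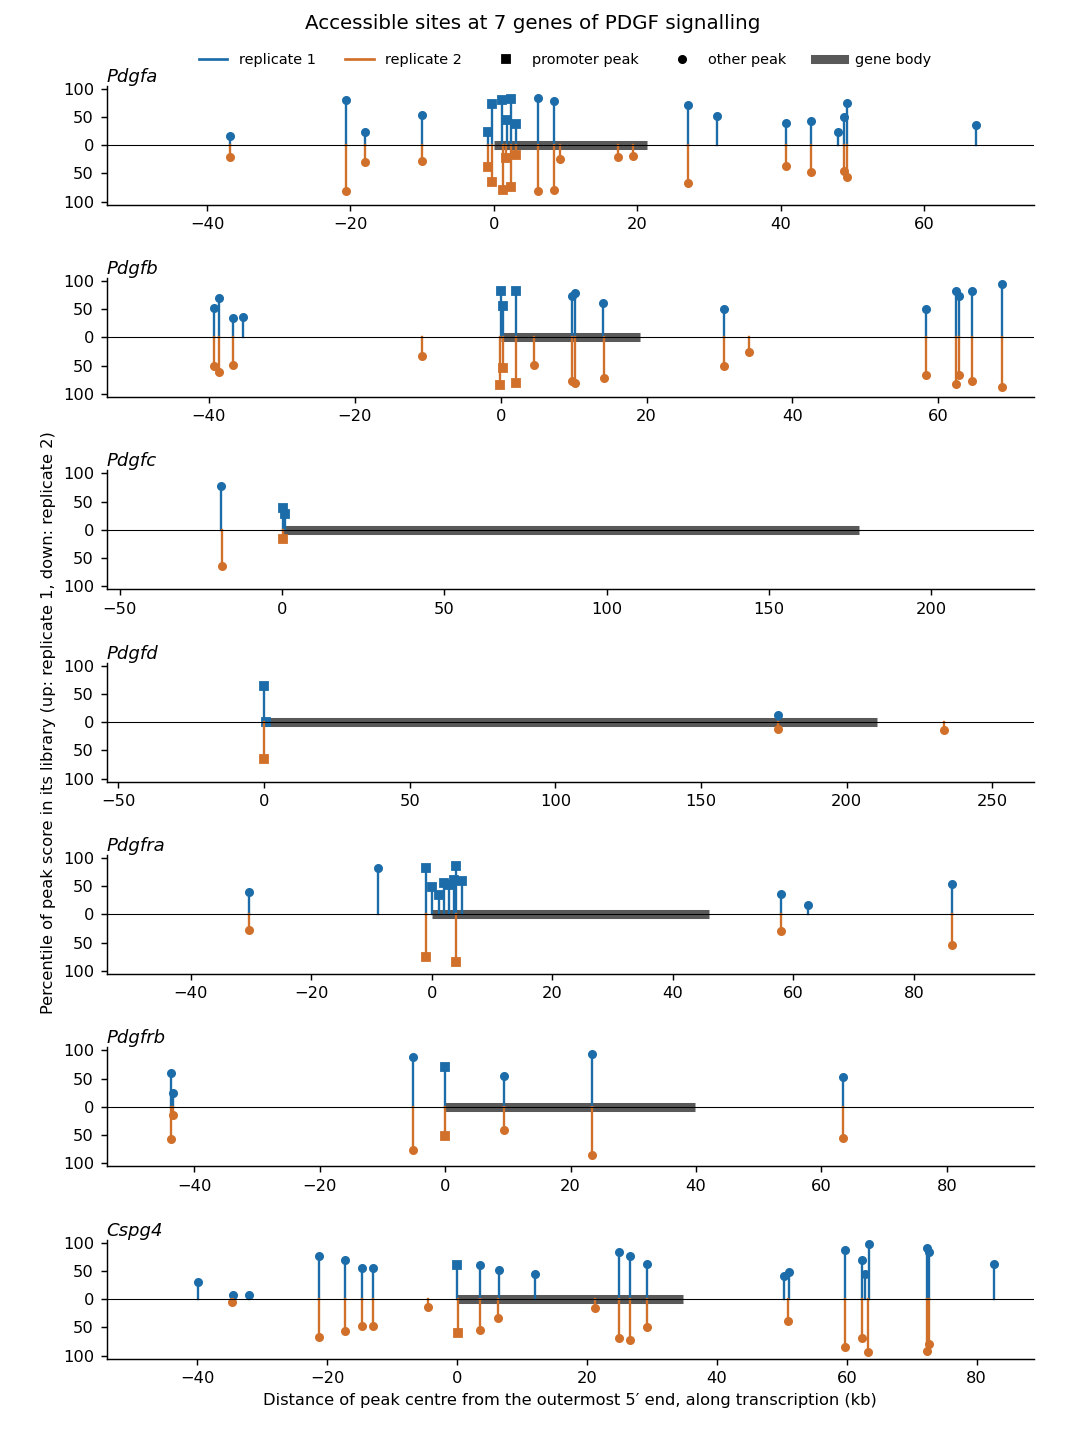
Accessible sites at the 7 genes. The horizontal axis is the distance of each peak centre from the outermost 5′ end in kb along transcription, and the vertical axis is the percentile of the peak score within its library, upward for replicate 1 and downward for replicate 2. Squares are promoter peaks, circles are other peaks and the grey bar is the gene body. The bodies of Pdgfc and Pdgfd are nearly empty, Pdgfa, Pdgfb and Cspg4 carry many sites, and Pdgfra has promoter peaks in replicate 1 that replicate 2 lacks.

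Pdgfra, on chromosome 5 from 75152292 to 75198215 (plus strand), encodes the receptor that marks alveolar fibroblasts and myofibroblast precursors, and it had the highest promoter percentile of the 7 genes in replicate 1. Its 2 strongest promoter peaks were found in both libraries and lay on either side of the start. The one 4.06 kb inside the gene, near internal transcript ends, stood at percentile 85.8 in replicate 1 and 84.0 in replicate 2. The gene Gm42803 also has a transcript 5′ end within 1 kb of it. Some promoter peaks found in replicate 1 only likewise lay within 1 kb of an end of Gm42802 or Gm42803. The shared peak 1.00 kb upstream, printed above, stood at 82.8 in replicate 1 and 75.6 in replicate 2, with 4 footprints in replicate 1 and 2 in replicate 2. Its edge lay 912 bp from the nearest transcript end in replicate 1 and 908 bp in replicate 2, just inside the 1 kb limit. The first peak past that limit at any member lay 1845 bp from a transcript end of Cspg4 in replicate 1, at percentile 84.0, and 1616 bp from it in replicate 2, at 15.7. No peak overlapped the 250 bases before the RefSeq start of Pdgfra in either library.

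Pdgfra was the member at which the libraries had the smallest share of sites in common, 5 of 13. Replicate 1 had 8 promoter peaks and replicate 2 had 2. The 6 promoter peaks of replicate 1 without a partner stood between percentiles 33.9 and 61.6, and 1 of them, at 48.9, began just inside the outermost start. Of the 9 annotated transcript 5′ ends, 8 had a peak within 1 kb in replicate 1 and 5 in replicate 2. Counting other peaks too, 8 of 13 peaks of replicate 1 at Pdgfra (61.5%) had no partner in replicate 2, while all 5 peaks of replicate 2 had one in replicate 1. Among the 10351 genes with at least 10 peaks in replicate 1, 0.918% had a share of unpartnered peaks this high, and the median share was 23.1%. At the other members the share was between 0 and 33.3%. A difference of 6 promoter peaks or more was found at 15 of 21938 genes, which include Pdgfra, Meis2, Egfl7 and Ptch1. This measure was chosen after the values at Pdgfra were seen. Over the genome replicate 1 held more peaks, 94786 against 77403, and the part of read depth, which is unknown, in the difference was not tested.

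The strongest site at Pdgfra in replicate 1 only lay 8.89 kb upstream, in an intron of the noncoding gene Gm19583, at percentile 82.2 with 3 footprints. Replicate 2 had no peak there in the list used, although 98.8% of the peaks of replicate 1 between percentiles 80 and 90 had a partner. The site was in the longer peak list of replicate 2, and the authors' lowest false discovery rate over it in that library was 0.00311, while each of the 74 member peaks of replicate 2 in the list used held bases at 0.001 or below. Of the 8 unpartnered sites at Pdgfra, 5 were in that longer list and 3 had no base in the list of bases that pass 0.05 in that library. With this site, the other peaks at Pdgfra numbered 5 in replicate 1 and 3 in replicate 2, or 3.43 and 2.06 per 100 kb. The window printed for the site 8.89 kb upstream held a CTCF consensus match, GCCCTCTAGTGG, wholly inside bases that footprints of replicate 1 covered. The same 12 letters lay wholly inside bases covered by footprints of both libraries at the shared site 4.06 kb inside the gene. Matches to the CTCF consensus were found in 6.47% of equal windows at all peaks of replicate 1 and 6.82% in replicate 2.

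**Figure D2:**
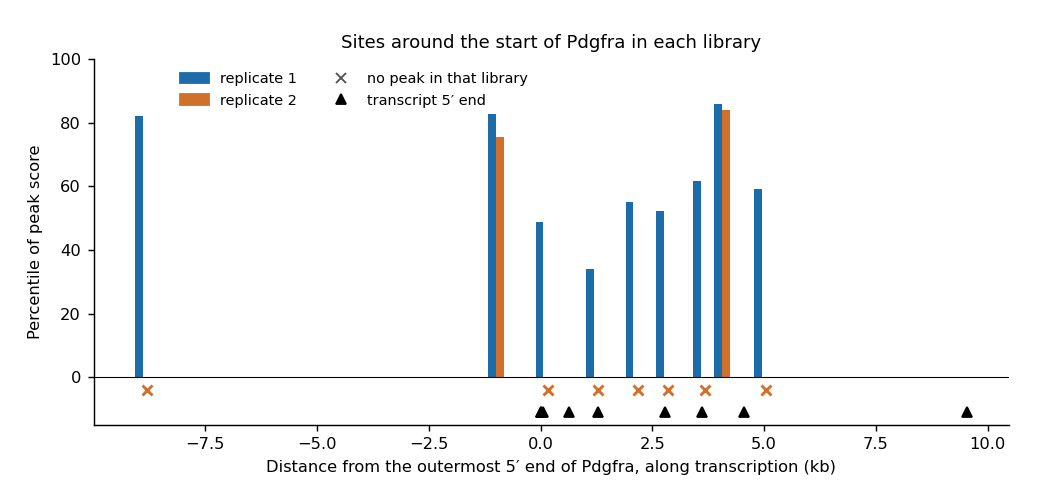
Sites around the start of Pdgfra. The horizontal axis is the distance from the outermost 5′ end in kb and the vertical axis the percentile of the peak score within the library, with bars for replicate 1 and replicate 2, crosses where a library has no peak and triangles at annotated transcript 5′ ends. The sites at 1.00 kb upstream and 4.06 kb inside are present in both libraries, and 7 others in this window are present in replicate 1 only.

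Pdgfrb, on chromosome 18 from 61045150 to 61085061 (plus strand), encodes the receptor known as a marker of pericytes and other mural cells. It had 1 promoter peak, 19 bp upstream of the start, at percentile 70.7 in replicate 1 and 51.3 in replicate 2, with 3 footprints in replicate 1 and 5 in replicate 2. Its 7 peaks of replicate 1 and 7 of replicate 2 paired one to one, so the map of sites was the same while the ranks differed. An intronic site 23.4 kb inside the gene was far above the promoter, at 94.1 in replicate 1 and 84.9 in replicate 2, with 5 footprints in replicate 1 and 3 in replicate 2. A site 5.14 kb upstream stood at 87.3 and 76.2. With 6 other peaks in each library the density was 4.29 per 100 kb, against the medians over all genes of 5.27 and 4.29. The macrophage receptor gene Csf1r lies next to Pdgfrb, and 1 of the other peaks, at 53.4 and 54.3, lay in its intron; Csf1r itself had no promoter peak in either library.

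Cspg4, on chromosome 9 from 56865033 to 56899870 (plus strand), had a modest promoter in a dense neighbourhood. Its 1 promoter peak, centred 37 bp inside the start, stood at percentile 60.5 in replicate 1 and 59.8 in replicate 2, and Odf3l1 also has a transcript end within 1 kb of it. The window held 22 other peaks in replicate 1 and 18 in replicate 2, or 16.3 and 13.3 per 100 kb, densities reached by 5.89% and 6.28% of all protein-coding genes. Of these, 6 in replicate 1 and 5 in replicate 2 lay within 1 kb of transcript ends of the neighbours Odf3l1, Snx33 and Imp3. The highest, at the start of Snx33, stood at 96.9 and 93.4, and 1 at the start of Imp3 at 90.5 and 92.4. A site in an intron of Snx33 stood at 87.1 and 85.2. Beyond the 50 kb limit the first peak, 50911 bp from the gene, stood at 97.9 in replicate 1 and 98.3 in replicate 2.

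Inside Cspg4 itself, 5 intronic or exonic sites were shared by both libraries. The highest were the 2 printed above. The site 24.9 kb inside stood at percentile 84.0 in replicate 1 and 68.3 in replicate 2, with 4 footprints in replicate 1 and 1 in replicate 2. The site 26.6 kb inside stood at 77.1 and 72.1, with 4 footprints in each library. In the window 26.6 kb inside, the CTCF match lay wholly inside bases that footprints of both libraries covered, and so did 1 at the shared site 29.2 kb inside. Over the 68 site windows of the 5 members whose sequence was read, 7 (10.3%) held a CTCF match, against 6.47% of windows at all peaks of replicate 1 and 6.82% in replicate 2. The GC box was in 22.1% of the member windows, against 22.1% and 23.6%, and the NFI half-site in 13.2%, against 16.1% and 16.3%.

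**Figure D3:**
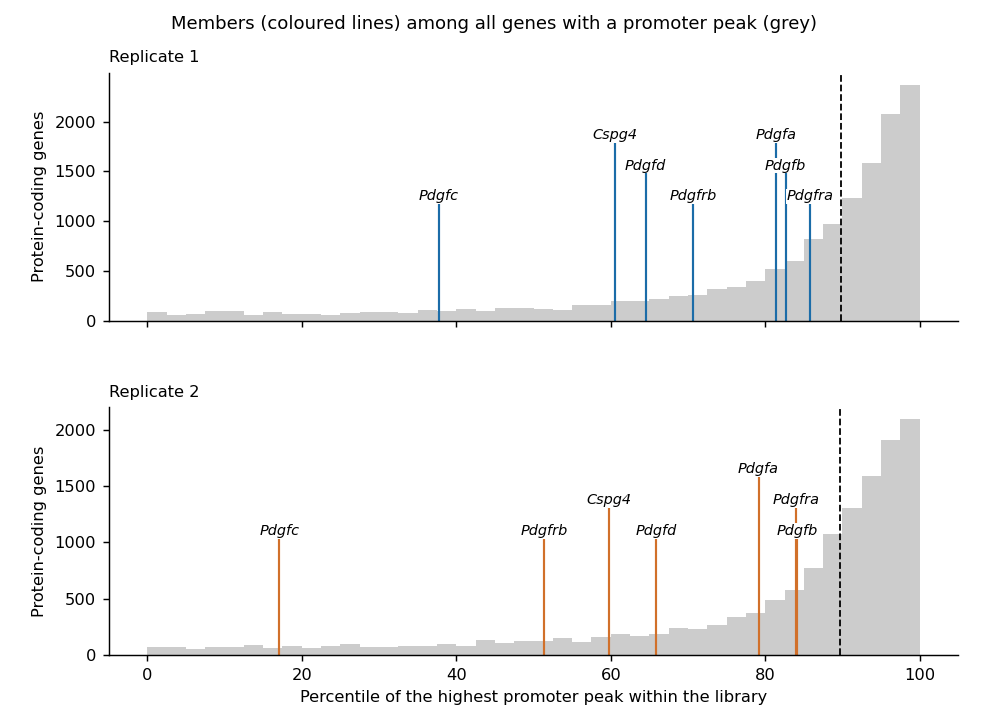
Highest promoter peak of each member among all genes. The horizontal axis is the percentile of the highest promoter peak within the library and the vertical axis the number of protein-coding genes with a promoter peak in each bin (grey). Coloured lines are the 7 members and the dashed line is the median of all genes with a promoter peak, 89.9 in replicate 1 and 89.7 in replicate 2; every member lies to the left of it.

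The order of the members by their highest promoter peak was similar in both libraries. The means over the libraries were 84.9 ± 1.26 for Pdgfra, 83.4 ± 1.03 for Pdgfb, 80.3 ± 1.61 for Pdgfa, 65.2 ± 0.952 for Pdgfd, 61.0 ± 13.7 for Pdgfrb, 60.2 ± 0.535 for Cspg4 and 27.4 ± 14.6 for Pdgfc (SD, n = 2 each). Pdgfra and Pdgfb did not differ beyond their spread, since Pdgfra was higher in replicate 1 and Pdgfb in replicate 2. With the outermost 5′ end only, the mean was 79.2 for Pdgfra and 69.0 for Pdgfa, and it stayed at 83.4 for Pdgfb. Pdgfrb overlapped Pdgfd and Cspg4, with the widest spread after Pdgfc. Relative to other genes with a promoter peak, the members stood between 8.05% for Pdgfc and 39.8% for Pdgfra in replicate 1, and between 3.50% for Pdgfc and 36.1% for Pdgfb in replicate 2. The peak scores behind these ranks were 0.926 to 4.72 in replicate 1 and 0.682 to 4.21 in replicate 2, on scales that are not comparable between libraries, against medians over all peaks of 1.22 in replicate 1 and 1.35 in replicate 2.

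**Figure D4:**
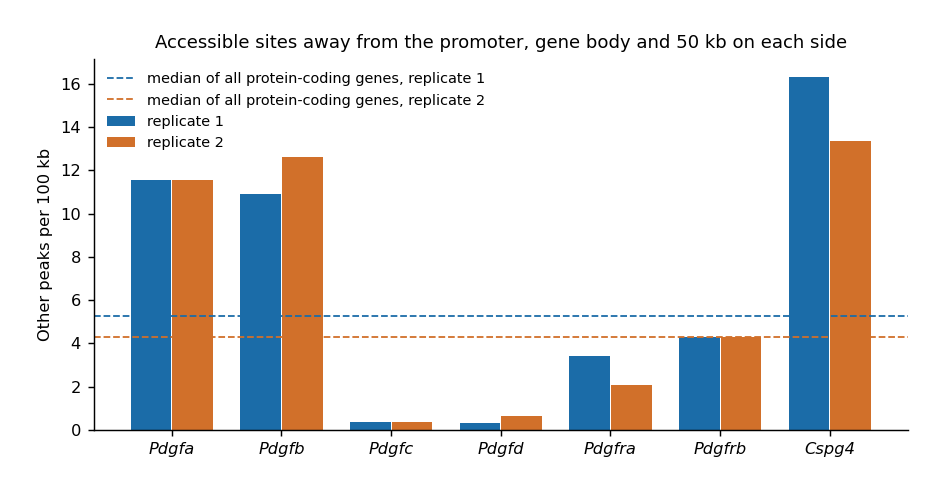
Density of other peaks. Bars give the number of peaks outside the promoter per 100 kb of gene body and 50 kb flanks for each member in each library, and dashed lines the median over all protein-coding genes in that library. Pdgfa, Pdgfb and Cspg4 stand above both lines, Pdgfc and Pdgfd near 0.

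Together the members held 85 peaks in replicate 1 and 74 in replicate 2, of which 23 and 15 were promoter peaks and 62 and 59 other peaks. They formed 94 sites, 65 of them in both libraries, 20 in replicate 1 only and 9 in replicate 2 only. Of the member peaks, 76.5% in replicate 1 and 87.8% in replicate 2 overlapped a peak of the other library, against 73.6% and 89.8% of all peaks. Over the 65 shared sites the percentiles of both libraries had a Spearman rho of 0.93, as a description of sites in libraries from the same tissue. Member peaks held 216 footprints in replicate 1 and 185 in replicate 2, or 13.2 and 13.1 per kb, against 13.0 and 12.6 per kb in all peaks. A footprint of the other library overlapped 64.4% of member footprints in replicate 1 and 65.4% in replicate 2, against 55.8% and 69.3% of all footprints in peaks. The share of overlapped footprints at these genes was thus above that of all peaks in replicate 1 and below it in replicate 2.

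Genes that act around the ligands and receptors were counted in the same way, beside the 66.6% of all protein-coding genes open in replicate 1, 64.1% in replicate 2 and 63.5% in both. All 9 genes for PDGF processing and co-receptors had a promoter peak in both libraries, led by Acp1, a phosphatase of the receptor, Lrp1, a co-receptor, and Plat, a protease that activates PDGF-C. All 24 adaptors and effectors of the receptors were open in both, with a median percentile of 97.4 in replicate 1 and 96.0 in replicate 2, led by Stat3, Map2k1 and Cbl. That list median lay above the median of all open genes, 89.9 and 89.7, although single genes such as Nck2, an adaptor named after its values were seen, at 79.8 and 81.1, lay below it. The 5 related growth factors of the VEGF branch were all open, with Vegfa, Pgf and Vegfc highest. Of the 6 related receptor kinases, 4 had a promoter peak in replicate 1 and 5 in replicate 2, near the share of all genes in replicate 1, and Flt1, Kit and Kdr ranked highest. Among 11 other proteoglycan genes 10 and 8 were open, Sdc4, Vcan and Sdc1 highest, while the cartilage gene Acan was closed in both.

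Markers of cell types were read beside the same shares of all genes, 66.6% in replicate 1 and 64.1% in replicate 2. All 8 lung epithelial markers had a promoter peak in both libraries, with Hopx, Cdh1 and Nkx2-1 highest. Of 16 pericyte markers, 14 had a promoter peak in replicate 1 and 11 in replicate 2, at medians of 62.1 and 51.7. Gucy1b1, Mcam and Kcnj8 were the highest of them, and Higd1b and Vtn had no promoter peak. Smooth muscle markers were open at 7 of 9 genes in each library, though not the same 7, since 6 were open in both. Fibroblast markers were open at 11 and 10 of 14, and endothelial markers at 7 of 8 in each. Markers of other cells that express PDGF genes were also counted: 3 and 2 of 9 megakaryocyte genes, 4 and 2 of 8 macrophage genes, and 2 and 2 of 6 oligodendrocyte precursor genes had a promoter peak. Replicate 2 held fewer open promoters than replicate 1 in the pericyte, fibroblast, macrophage, megakaryocyte and proteoglycan lists and over all genes. It held as many in the smooth muscle, endothelial, epithelial and oligodendrocyte precursor lists. The same was true of the lists of PDGF processing, of adaptors and effectors and of related growth factors. In the list of related receptor kinases replicate 2 held more, 5 against 4. The part of cell makeup in the lower rank of Pdgfrb and the fewer peaks at Pdgfra in replicate 2 was not tested.

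**Figure D5:**
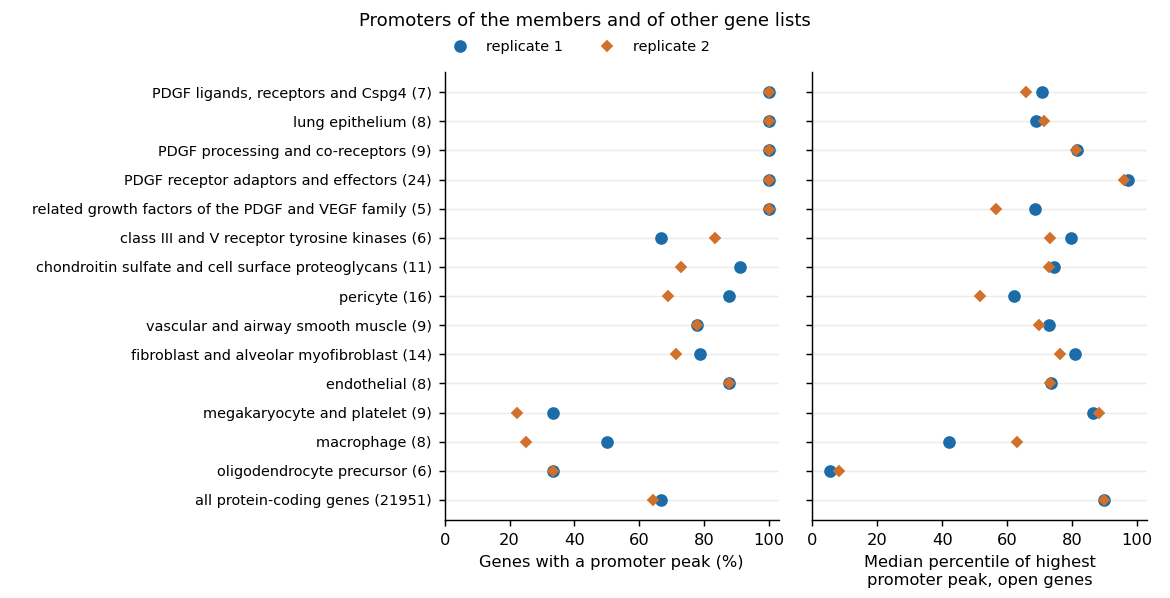
Promoters of the members and of other gene lists. The left panel gives the percent of genes with a promoter peak and the right panel the median percentile of the highest promoter peak of the open genes, for replicate 1 (circles) and replicate 2 (diamonds), with the number of genes in brackets. The members are fully open with a median percentile of 70.7 and 65.9, below the 97.4 and 96.0 of the receptor adaptors and effectors.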

How the data were processed

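DNase-seq libraries of mouse lung were aligned and called by the authors, each library on its own, on mm10 per the listings deposited with the files. Not given in the sources used here are the aligner, the peak caller and its cutoffs. The deposited peak lists hold a signal value per peak on a scale that is not stated, and it was used only for ranks within a library. Of 2 lists per library the shorter was used (94786 peaks in replicate 1, 77403 in replicate 2; longer lists of 145663 and 117300). The deposited false discovery rates (a p-value type column) cover bases at 0.05 or below, and the deposited footprints (326313 and 252174) carry a constant p-value threshold of 0.01. Read depth is unknown, so no counting interval was computed.

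From these files, peaks within 1 kb of any transcript 5′ end in GENCODE M21 counted as promoter peaks, and those elsewhere in the gene or up to 50 kb from it as other peaks. Peaks were called shared from 1 bp of overlap, and footprints were counted wholly inside peaks. Percentiles average ties. Values are given per library or as mean ± SD of 2 libraries, with no test, because 1 group allows no contrast. The overlap and ranking steps were tested on simulated data. Sequences and motif windows came from the RefSeq GRCm38.p6 genome and promoter tables. The software was Python 3.11.15, numpy 2.4.6 and, for plots, matplotlib 3.10.9.

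The members and the 13 gene lists (133 entries, with Kdr and Csf1r each in more than 1 list) were chosen with earlier results of these data known. Named genes were the members, genes with a 5′ end within 1 kb of their other peaks, and from each list up to 3 genes open in both libraries with the highest mean percentile and up to 3 closed in both in alphabetical order. Genes that host or adjoin a named site and genes with the largest differences in promoter peaks were named after their values were seen. Alternatives were the longer peak list, the higher-scoring 50% of peaks, promoter windows of 500 and 2500 bp, the outermost 5′ end only, other flanks, stricter overlap and each library alone.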

Additional observations from a re-analysis of the deposited data

How the results depend on the processing

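The 7 members open in both libraries stayed at 7 under the longer peak list, under promoter windows of 500 and 2500 bp, with the outermost 5′ end only and in each library alone (range 7 to 7); it was 6 with the higher-scoring 50% of peaks, where Pdgfc lost its promoter peak. The median percentile of the members' highest promoter peak, 68.3 as reported, was 79.2 with the longer list, 74.3 with the higher-scoring 50% and 74.8 with a window of 2500 bp, and ranged from 65.9 to 70.7 over the libraries taken alone. With the longer list, percentiles were taken over its larger number of peaks. With the higher-scoring 50%, peaks kept their percentiles and the median no longer included Pdgfc. With the window of 2500 bp, the highest promoter peak of Cspg4 moved from 60.2 to 76.1. The sum of other peaks, 60.5 as a mean of both libraries, was 95 with the longer list, 35.5 with the higher-scoring 50%, and 16, 31.5 and 99.5 with no flanks and flanks of 20 and 100 kb, with a range of 59 to 62 over single libraries. The sum of footprints, 200.5, was 92 with no flanks, 124 with flanks of 20 kb, 293 with flanks of 100 kb and 250.5 with the longer list, with a range of 185 to 216. The share of member peaks that overlapped the other library, 82.2%, was 74.0% when at least 50% of a peak had to overlap, and it has no value with a library left out. Of the values of single genes under these alternatives, 71 stayed within the margin used and 33 did not. The margin was a factor of 1.5 for counts of peaks and 1 SD of the libraries for percentiles. Either of 2 libraries always lies within 1 SD of their mean, so percentiles from each library alone stayed by construction. The counts of 71 and 33 include them and do not measure how robust the values are. With the longer list other peaks averaged 22 at Pdgfb, 3 at Pdgfc, 3 at Pdgfd, 10 at Pdgfra and 11.5 at Pdgfrb, and the highest promoter peak of Pdgfc 48.7 in place of 27.4. No paired analysis was possible because 1 group holds no pair of conditions. Limits are the unknown read depth, the unknown scaling of the peak scores, the possible sharing of animals between libraries, and the use of the C57BL/6J sequence for mice that carry a CAST/EiJ haplotype.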
